A study of Saccharomyces cerevisiae with 24 samples.

Results

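Genes of the mitochondrial matrix protein quality control system of budding yeast are described here across 24 libraries of mRNA and ribosome footprints. They were chosen by name and number 10 of the 5211 genes in the deposited count table, and all 10 were counted in every library. HSP60 (YLR259C) and HSP10 (YOR020C) encode the chaperonin and its lid. SSC1 (YJR045C) and ECM10 (YEL030W) encode matrix Hsp70s. MDJ1 (YFL016C), MGE1 (YOR232W) and ZIM17 (YNL310C) encode the J-protein, the nucleotide exchange factor and the zinc-finger escort protein that work with Hsp70. HSP78 (YDR258C) encodes the matrix disaggregase, PIM1 (YBL022C) the Lon-type protease, and TCM62 (YBR044C) a chaperonin-related protein needed to assemble succinate dehydrogenase.

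Most mitochondrial proteins are made in the cytosol, and those of the matrix cross both membranes unfolded. Ssc1 pulls these matrix proteins in and passes many of them to Hsp60 and Hsp10 for folding. In folding, Ssc1 works in cycles with Mdj1 and Mge1. Hsp78 returns aggregated proteins to a soluble state, and Pim1 degrades those that do not fold.

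In build R64 the genes lie on chromosomes XII (HSP60, 663284 to 665002), XV (HSP10, 370524 to 370844, and MGE1, 774573 to 775259), X (SSC1, 519638 to 521602), V (ECM10, 94644 to 96578) and VI (MDJ1, 104701 to 106236). The others lie on chromosomes IV (HSP78, 971808 to 974243), II (PIM1, 177874 to 181275, and TCM62, 324341 to 326059) and XIV (ZIM17, 51907 to 52431). These are annotated coding extents, and none overlaps another annotated gene. SSC1 and ECM10 are paralogs, and how reads shared between them were counted is not given in the sources used here. ECM10 held 3 to 44 footprint counts per library, which was 0.0507% to 0.147% of the SSC1 count, so its values are uncertain.

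The cells were strain BY4741, called wild type, and a zuo1Δ mutant of it that lacks ZUO1, the J-protein of the ribosome-associated chaperone complex. Both were grown in synthetic complete medium with 2% glucose to an optical density of 0.6. They were left unstressed at 30 °C, treated with hydrogen peroxide (H2O2) at 0.25 mM for 30 min, or brought to 37 °C for 45 min by an equal volume of medium at 44 °C. Each of the 2 genotypes and 3 conditions had 2 biological replicates in each of the 2 assays, poly(A) mRNA and ribosome footprints, the fragments that ribosomes protect from nuclease. How many clones of the mutant were used is not given in the labels.

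The mRNA libraries held between 7810893 and 122213415 counts and the footprint libraries between 1686930 and 15788345. ZUO1 was at 0 in all 12 zuo1Δ libraries. The a-cell receptor gene STE2, at 223.1 to 1324 CPM (counts scaled to the library total and TMM factor), stood above the alpha-cell receptor gene STE3, at 1.34 to 14.6 CPM, in every library, as BY4741 is an a strain. In 3 zuo1Δ libraries the peroxide-induced peroxiredoxin gene TSA2 went against the label. It stood at 38.6 CPM in the mRNA library labelled H2O2 replicate 2 and at 2215 CPM in the mRNA library labelled heat replicate 1, against 1739 CPM in H2O2 replicate 1 and 28.2 CPM in heat replicate 2. In the footprint library labelled H2O2 replicate 1 it stood at 16.1 CPM, against 2747 CPM in replicate 2. Where a group holds one of these 3 doubted libraries, the values or counts without them stand beside it. The 50 highest genes took from 19% to 61.7% of the counts in mRNA libraries and from 25.2% to 35.1% in footprint libraries.

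In unstressed wild type SSC1, HSP60 and HSP10 were the most translated of the 10 genes per length. Footprint levels are CPM per kilobase of coding length (mean ± SD, n = 2). SSC1 stood at 1454 ± 112, HSP60 at 1195 ± 137 and HSP10 at 1013 ± 40.6. MGE1 followed at 324.5 ± 0.109, below these 3 and above the rest. PIM1 came next at 93.1 ± 5.57, with its libraries above those of MDJ1 at 77.1 ± 11.8. The libraries of MDJ1 and HSP78, at 69.7 ± 21.1, overlapped, as did those of HSP78 and ZIM17, at 44.7 ± 18.5. TCM62 at 9.41 ± 2.94 and ECM10 at 1.76 ± 0.424 were lowest, without overlap.

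The order per length in mRNA differed. HSP60 was highest at 2275 ± 237 CPM per kilobase, and SSC1 (1489 ± 223) and HSP10 (1327 ± 546) overlapped below it. The other 7 genes stood between 4.77 ± 0.952 for ECM10 and 64.5 ± 34.3 for MGE1. The ratio of footprint to mRNA CPM, on a log2 scale (mean ± SE, n = 2), was highest for HSP78 (2.49 ± 0.36) and MGE1 (2.44 ± 0.57). It was 1.65 ± 0.19 for PIM1 and -0.93 ± 0.16 for HSP60. ECM10 was lowest at -1.45 ± 0.32. These ratios rest on the TMM factors. Scaled by library size alone, HSP60 stood at 1869 and 1592 CPM in footprints and at 1638 and 1805 CPM in mRNA, so its groups overlapped.

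The footprint level in every library is given next by role, in CPM, with replicate 1 before replicate 2. HSP60 stood at 2221 and 1888 in unstressed wild type, 2116 and 1948 after H2O2 and 4297 and 3687 after heat. In zuo1Δ it stood at 1538 and 1108 unstressed, 1075 and 1235 in the libraries labelled H2O2, and 1683 and 961 after heat. The wild-type heat libraries were above all others, and every zuo1Δ library was below every wild-type library with TMM factors. By library size alone zuo1Δ heat replicate 1 (1849 CPM) lay above wild-type unstressed replicate 2 (1592 CPM). HSP10 stood at 334.4 and 315.9, then 327.7 and 272.7, then 557.2 and 441 in wild type in the same order. In zuo1Δ it stood at 225.6 and 200.5, 217 and 259.9, and 364.8 and 288.2. The heat libraries of HSP10 were the highest of their genotype in both strains.

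In wild type, SSC1 footprints varied less. They stood at 3011 and 2701, 3383 and 3622, and 3122 and 2871 in wild type, and at 2572 and 1895, 1759 and 2199, and 1859 and 1398 in zuo1Δ. All zuo1Δ values lay below all wild-type values with TMM factors. By library size alone zuo1Δ unstressed replicate 1 (2543 CPM) lay above both wild-type unstressed libraries (2534 and 2279 CPM). MDJ1 stood at 131.2 and 105.5, 148.1 and 143.7, and 129.9 and 117.4 in wild type. In zuo1Δ it stood at 121.2 and 82.9, 81.9 and 82.7, and 54.9 and 48 in that order, so the zuo1Δ heat libraries were the lowest of the 12. MGE1 ran from 173.6 to 250.0 in wild type and from 154.7 to 200.3 in zuo1Δ, and its ranges overlapped between genotypes. ZIM17 ran from 16.6 to 34.5 and from 25.8 to 33.7, with no group apart from all the others. ECM10 ran from 2.17 to 3.98 and from 0.942 to 2.19.

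HSP78 stood at 206 and 133.4, 477.7 and 375.7, and 477.1 and 316.4 in wild type, with both stresses above the unstressed state. In zuo1Δ it stood at 195.8 and 64.6 unstressed, 104.5 and 207 in the libraries labelled H2O2, and 158.5 and 96.9 after heat. Its unstressed replicates lay apart in both strains, and the general stress gene HSP12 lay apart in the same direction, at 42.3 and 6.64 in wild type and 44.9 and 19.5 in zuo1Δ. The part of that difference between cultures in the HSP78 values was not tested. PIM1 stood at 330.1 and 303.3, 622.9 and 656.7, and 432.9 and 405 in wild type, highest after H2O2. In zuo1Δ it stood at 294.6 and 293.1, 274.5 and 450.2, and 308.6 and 237.1, where the 450.2 belongs to H2O2 replicate 2. TCM62 ran from 12.6 to 20.6 in wild type and from 8.13 to 12.8 in zuo1Δ.

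**Figure D1:**
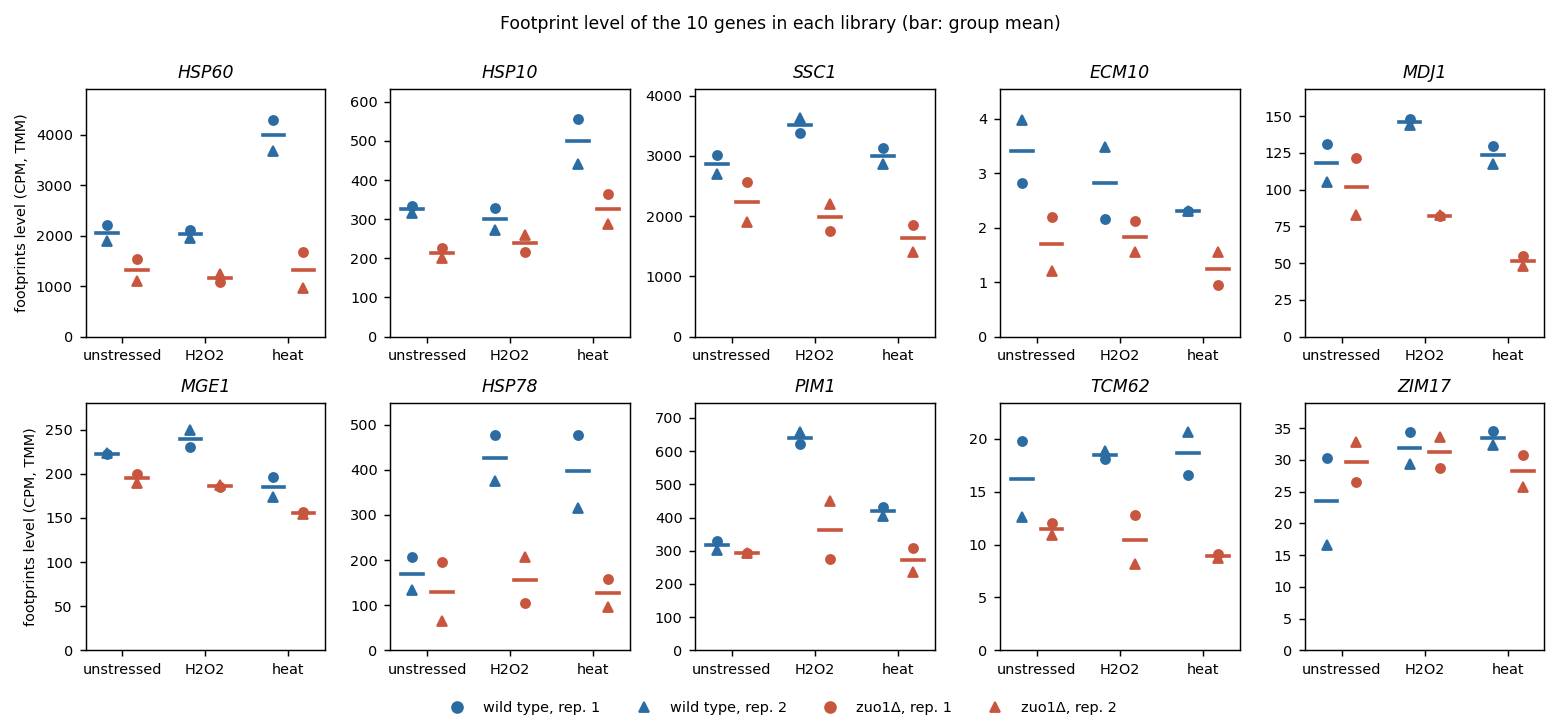
Footprint level (CPM, TMM-scaled, axis from 0) of each of the 10 genes in the 12 footprint libraries, by condition on the horizontal axis. Blue is wild type and red is zuo1Δ, circles are replicate 1, triangles replicate 2 and bars group means. HSP60 is highest in wild-type heat (4297 and 3687 CPM), PIM1 in wild-type H2O2 (622.9 and 656.7 CPM), and MDJ1 is lowest in zuo1Δ heat (54.9 and 48 CPM).

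The heat comparison in wild type asked which of these genes were translated more after the shift to 37 °C. Footprints on the chaperonin genes rose, and no member fell. Changes are log2 fold changes ± SE from edgeR with 2 libraries per group, and a gene passed at an adjusted p under 0.05 over all genes. HSP60 rose by 0.96 ± 0.23 (adjusted p = 0.0237), a 1.94-fold change, and HSP10 by 0.62 ± 0.18 (adjusted p = 0.0482). These 2 of 10 members compare with 3.53% of all 5064 genes that were higher and 9.81% that passed in either direction. Since the cultures were measured in bulk, more cells translating a gene and more translation of it per cell cannot be told apart. HSP78 had the largest value, 1.22 ± 0.47, but did not pass (adjusted p = 0.126), and it did pass in a fit of only these 2 groups (1.19, adjusted p = 0.0181, in a range of 0.0181 to 0.439 over the settings). SSC1 (0.07 ± 0.18) and MDJ1 (0.06 ± 0.19) stood near 0 and MGE1 at -0.27 ± 0.13, and none of these passed. Both calls were lost when any 1 of the 4 libraries was left out, with HSP60 at 0.79 to 1.07 and adjusted p from 0.0797 to 0.176. HSP10 also missed the threshold with RLE size factors (0.57, adjusted p = 0.0643) and with genes at 0 in 1 genotype kept (0.59, adjusted p = 0.0628).

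In wild-type mRNA no member passed after heat (adjusted p for HSP78 = 0.109 and for HSP10 = 0.133 in edgeR), and 0.69% of all genes passed. At an unadjusted p under 0.05 there were 3 members, and DESeq2 called 1, HSP78. HSP60 mRNA stood at 5893 and 5326 CPM after heat against 4198 and 3622 CPM before, and HSP10 at 1363 and 911.7 CPM against 550 and 301.9 CPM. The heat libraries of both genes lay above the unstressed ones, at 0.52 ± 0.52 and 1.42 ± 0.55. The footprint change minus the mRNA change, the efficiency difference, passed for no member in edgeR, with 0 at an unadjusted p under 0.05, 0 in DESeq2 and 0.0986% of all genes passing. Without wild-type unstressed replicate 1, 1 member passed in mRNA.

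After H2O2 in wild type the protease gene PIM1 gained footprints and the disaggregase gene HSP78 gained mRNA. PIM1 footprints rose by 1.01 ± 0.21 (edgeR, adjusted p = 0.00753), a 2.02-fold change, the 1 of 10 members that passed. All genes passed at 9.36% higher and 18.1% in either direction, so this share is near the background. HSP78 footprints stood at 1.33 ± 0.47 (adjusted p = 0.0706) and did not pass. They did with library size alone (adjusted p = 0.0346) and in a fit of only these 2 groups (adjusted p = 0.0016), in a range of 0.0016 to 0.373 over the settings. In the latter fit SSC1 also passed (0.27, adjusted p = 0.0438, in a range up to 0.758). The chaperonin genes did not move with it, with HSP60 at -0.02 ± 0.23 and HSP10 at -0.12 ± 0.18, neither of which passed. PIM1 lost its call without unstressed replicate 2 (0.89, adjusted p = 0.0854).

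HSP78 mRNA stood at 124.5 and 134.2 CPM after H2O2 against 33.3 and 26.3 CPM before, and rose by 2.12 ± 0.34 (edgeR, adjusted p = 0.0159), a 4.34-fold change. Among all genes 1.44% rose and 2.66% passed in either direction. PIM1 mRNA was 252.7 and 301.5 CPM against 89.3 and 114.2 CPM, at 1.45 ± 0.50 (adjusted p = 0.116), and MDJ1 149.6 and 140.9 CPM against 88.3 and 30 CPM, at 1.30 ± 0.55 (adjusted p = 0.181). These groups did not overlap, but neither gene passed. HSP60 mRNA was lower, at 2291 and 2174 CPM against 4198 and 3622 CPM, and did not pass (-0.81 ± 0.52, adjusted p = 0.371). Library size alone moved the median of all genes by 1.22, put HSP60 at 0.42, and called 7 members higher. The HSP78 call was lost without unstressed replicate 2 (adjusted p = 0.195), H2O2 replicate 1 (0.059) or H2O2 replicate 2 (0.103). Efficiency passed for no member in edgeR, with 0 at an unadjusted p under 0.05, 0 in DESeq2 and 0% of all genes passing.

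**Figure D2:**
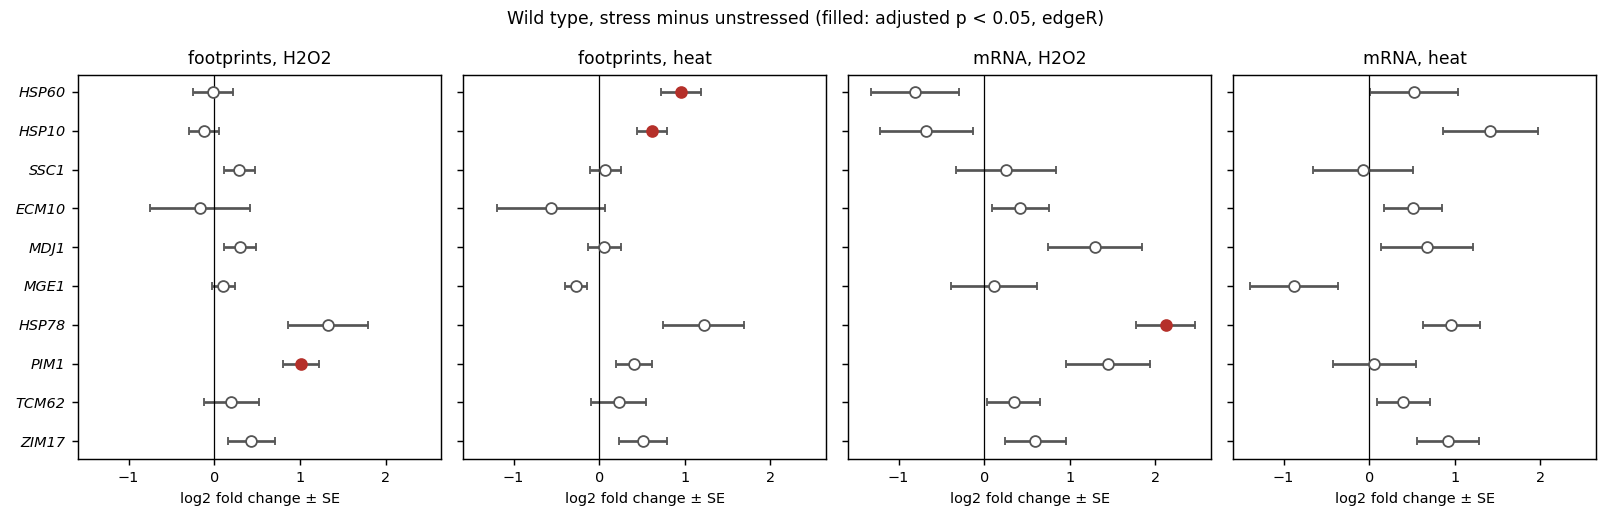
Log2 fold change ± SE of each gene in wild type, stress minus unstressed, for footprints and mRNA after H2O2 and heat. Filled red points passed the edgeR test over all genes and open points did not. HSP60 (0.96) and HSP10 (0.62) pass in heat footprints, PIM1 (1.01) in H2O2 footprints and HSP78 (2.12) in H2O2 mRNA.

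Other genes of mitochondrial and cytosolic protein quality control are given for comparison, with 18 other mitochondrial chaperones and proteases, 36 import and presequence-processing genes (35 tested) and 19 cytosolic heat shock factor targets. After H2O2 in wild-type footprints 6 of the 18 rose and 0 fell, against 9.36% of all genes higher. The largest were the presequence protease CYM1 (1.10 ± 0.24, edgeR adjusted p = 0.0088), prohibitin PHB2 (1.08 ± 0.23, adjusted p = 0.00878) and the peptidase PRD1 (0.95 ± 0.20, adjusted p = 0.00738). Of the 35 import genes 3 rose and 0 fell, a share near that of all genes. They were TIM13, a small chaperone of the intermembrane space (1.05 ± 0.32, adjusted p = 0.0381), the import oxidoreductase MIA40 (1.01 ± 0.23, adjusted p = 0.0108) and the processing peptidase subunit MAS1 (0.85 ± 0.18, adjusted p = 0.00894). Of the heat shock factor targets 3 rose, SSA4, HSP26 and HSP104, and 1 fell, where 18.1% of all genes passed in either direction. After heat, against 3.53% of all genes higher and 9.81% in either direction, 1 of the 18 rose, the matrix Hsp70 SSQ1 (0.68 ± 0.19, adjusted p = 0.0453), no import gene passed (edgeR), and 6 of 19 heat shock factor targets rose and 2 fell. The largest of these rises were the small heat shock protein HSP26 (3.38 ± 0.58, adjusted p = 0.00402) and the Hsp70s SSA4 (3.36 ± 0.60, adjusted p = 0.00486) and SSA3 (2.97 ± 0.70, adjusted p = 0.0208). The medians of the 3 lists after heat were 0.15, 0.06 and 0.57, against 0.32 for the 10 members and 0.07 for all genes.

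Loss of Zuo1 without stress left no member past the test in footprints, while 4.82% of all genes passed. At an unadjusted p under 0.05 there were 2 members, and DESeq2 called 1, HSP10 (-0.65, adjusted p = 0.0218). HSP10 stood at -0.61 ± 0.18 (edgeR, adjusted p = 0.0751) and HSP60 at -0.64 ± 0.23 (adjusted p = 0.151). HSP10 passed with the 3 doubted libraries left out (-0.65, adjusted p = 0.0393), in a range of 0.0218 to 0.263 over the settings. Both zuo1Δ libraries were below both wild-type libraries for 7 of the 10 genes, against 23.5% of all genes. The 3 genes whose groups overlapped were MDJ1, HSP78 and ZIM17. This separation rests on the TMM factors. By library size alone HSP60, HSP10 and ECM10 still lay below wild type, and SSC1 and TCM62 overlapped. PIM1 then lay above it, at 291.2 and 293.5 CPM in zuo1Δ against 277.8 and 255.9 in wild type. So did MGE1, at 198 and 189.8 CPM against 187.6 and 188.1. The median of the members was -0.36, and that of all genes 0.03.

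In the H2O2 libraries 5 of 10 members had lower footprints in zuo1Δ than in wild type and none had higher. The 5 were HSP60 (-0.82 ± 0.23, edgeR adjusted p = 0.0306), SSC1 (-0.82 ± 0.18, adjusted p = 0.0117), MDJ1 (-0.83 ± 0.18, adjusted p = 0.0122), HSP78 (-1.46 ± 0.46, adjusted p = 0.0451) and PIM1 (-0.82 ± 0.21, adjusted p = 0.0179). Among all genes 9.68% were lower and 19% passed in either direction. Both zuo1Δ libraries lay below both wild-type libraries for 9 members, all but ZIM17, against 33.5% of all genes. That count uses TMM factors, and by library size alone the groups of HSP10 and ECM10 overlapped as well. This comparison holds the doubted library labelled H2O2 replicate 1, and without it 0 of the 5 passed. All 5 values stayed negative then, from -0.48 for PIM1 (adjusted p = 0.104) to -1.01 for HSP78 (adjusted p = 0.258), with a lone zuo1Δ library assumed to vary like the other groups. The count was also 0 without wild-type H2O2 replicate 1 or replicate 2, and it was 3 with library size alone.

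After heat, footprints on the chaperonin gene HSP60, the J-protein gene MDJ1 and the Hsp70 gene SSC1 were lower in zuo1Δ than in wild type. HSP60 footprints were lower in zuo1Δ, at -1.59 ± 0.24 on the log2 scale (edgeR, adjusted p = 0.00331), a ratio of 0.331 to wild type. MDJ1 was lower at -1.26 ± 0.20 (adjusted p = 0.00465) and SSC1 at -0.88 ± 0.18 (adjusted p = 0.0151). These 3 of 10 compare with 3.61% of all genes lower and 6.48% in either direction. HSP60 and MDJ1 passed under each of the 12 other settings, with adjusted p up to 0.0318 and 0.0463. SSC1 did not pass without wild-type heat replicate 1 (adjusted p = 0.1), wild-type heat replicate 2 (0.077) or zuo1Δ heat replicate 2 (0.104), so the count was 2 without each of these.

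HSP78 (-1.62 ± 0.47, edgeR adjusted p = 0.0611), HSP10 (-0.61 ± 0.18, adjusted p = 0.0609), TCM62 (-1.08 ± 0.32, adjusted p = 0.0678) and PIM1 (-0.62 ± 0.21, adjusted p = 0.0952) lay above the threshold in heat. With the 3 doubted libraries left out of the fit, 6 members passed, HSP10, HSP78 and PIM1 beside the 3 named. These libraries are in neither heat footprint group. All 10 members had both zuo1Δ libraries below both wild-type libraries, against 26.1% of all genes. That count uses TMM factors, and by library size alone the groups of ZIM17 overlapped. The median of the members was -0.92 and that of all genes 0.01. Of the other lists, 1 of 18 mitochondrial chaperones and proteases was lower, 0 of 35 import genes passed (edgeR) and 11 of 19 heat shock factor targets were lower, against 3.61% of all genes, with medians of -0.12, -0.08 and -1.35.

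**Figure D3:**
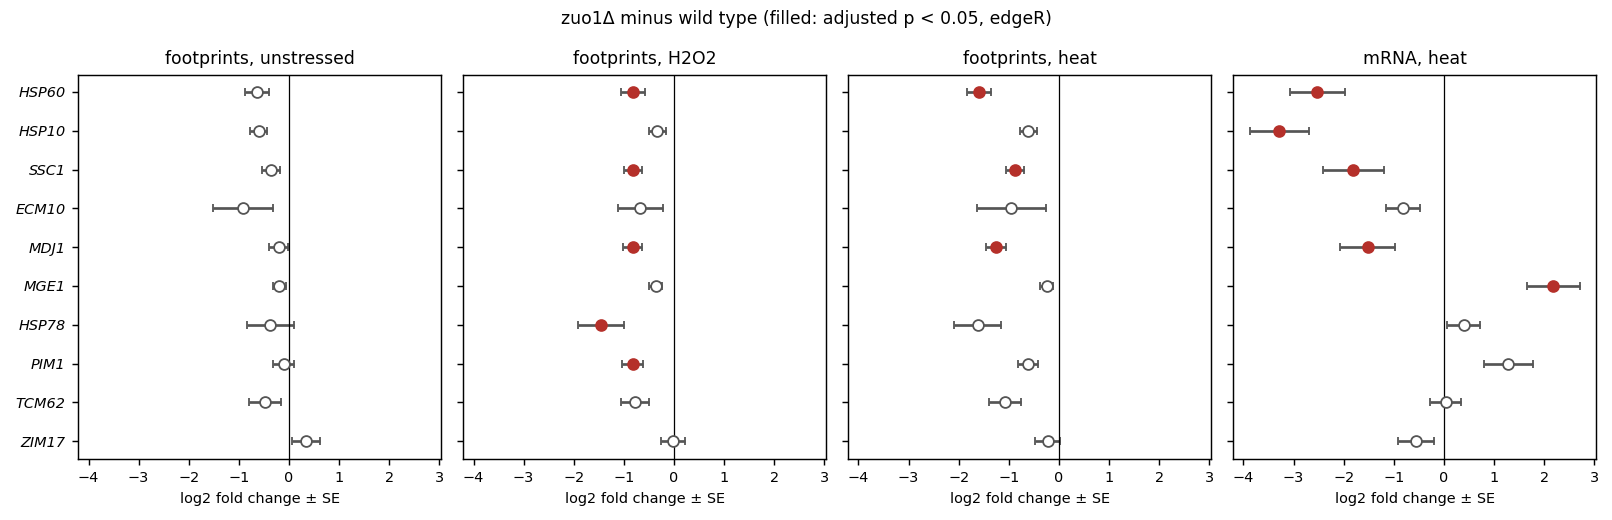
Log2 fold change ± SE of each gene, zuo1Δ minus wild type, for footprints in the 3 conditions and for mRNA after heat. Filled red points passed the edgeR test over all genes and open points did not. In heat footprints HSP60 (-1.59), MDJ1 (-1.26) and SSC1 (-0.88) pass, and all 10 values are below 0.

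Within zuo1Δ the chaperonin lid gene and the J-protein gene moved in opposite directions after heat. HSP10 footprints rose by 0.62 ± 0.18 (edgeR, adjusted p = 0.041), the same value as in wild type, and MDJ1 fell (-0.99 ± 0.19, adjusted p = 0.00992). HSP60 stood at 0.00 ± 0.23 (adjusted p = 0.998). Among all genes 11.9% passed, a share near that of the members. The count fell to 0 when unstressed replicate 1 of zuo1Δ was left out, and to 1 when any of the other 3 zuo1Δ libraries compared was. For H2O2 within zuo1Δ no member passed in edgeR, with 0 at an unadjusted p under 0.05, 0 in DESeq2 and 0% of all genes passing, in a group that holds the doubted library, and 0 passed without the 3 doubted libraries.

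Whether the stress response itself differed between genotypes was tested as an interaction, and no member passed in footprints. For heat the largest values were HSP78 (-1.25 ± 0.66, edgeR adjusted p = 0.392), MDJ1 (-1.05 ± 0.27, adjusted p = 0.112) and HSP60 (-0.96 ± 0.33, adjusted p = 0.202), with 2 members at an unadjusted p under 0.05 and 1.03% of all genes passing. MDJ1 passed in DESeq2 (-1.01, adjusted p = 0.032) and without zuo1Δ unstressed replicate 2 (-1.27, adjusted p = 0.0488), in a range of 0.032 to 0.333 over the settings. HSP10 stood at 0.00 ± 0.24. Of the heat shock factor targets 5 of 19 passed, all lower, against the same 1.03% of all genes. For H2O2 1.36% of all genes passed, with 2 members at an unadjusted p under 0.05 and 0 in DESeq2. PIM1 (-0.71 ± 0.29, edgeR adjusted p = 0.189) passed without zuo1Δ H2O2 replicate 2 (-1.07, adjusted p = 0.0123), where the doubted library alone stood for its group, in a range up to 0.497. Without the 3 doubted libraries 0 members passed this interaction (edgeR). The stress and genotype comparisons share libraries, so their values are not independent of one another.

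In mRNA after heat 4 members were lower in zuo1Δ than in wild type and 1, MGE1, was higher. HSP60 stood at 1196 and 750.4 CPM in zuo1Δ against 5893 and 5326 in wild type, where the first zuo1Δ value is from the doubted library labelled heat replicate 1. HSP10 stood at 139.5 and 94.3 CPM against 1363 and 911.7, and SSC1 at 1086 and 505.7 CPM against 3757 and 1805. These groups did not overlap, and the changes were -2.53 ± 0.54 (edgeR, adjusted p = 0.00842), -3.28 ± 0.59 (adjusted p = 0.00813) and -1.81 ± 0.60 (adjusted p = 0.0317). MDJ1 was lower too (-1.53 ± 0.55, adjusted p = 0.0437), while MGE1 was higher, at 113.2 and 105.3 CPM against 22.1 and 26.1 (2.18 ± 0.53, adjusted p = 0.0107). Among all genes 21% were lower and 37.3% passed in either direction, so 5 of 10 members is not far from the background.

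The scaling of the mRNA libraries bears on these values. Library size alone moved the median of all genes by 1.51 in this comparison and put HSP60 at -1.05 (adjusted p = 0.0507), SSC1 at -0.20 and MDJ1 at -0.01, none of which passed. HSP10 (-1.73, adjusted p = 0.00827) and MGE1 (3.64, adjusted p = 0.00269) passed under it, beside HSP78, PIM1 and TCM62, all 3 higher. The 363 genes with a mean mRNA level of at least 500 CPM, among them HSP60 and SSC1, had a median of -1.33 in the same comparison with TMM factors. The part of this difference in composition in the members' values was not tested. Without the 3 doubted libraries 0 of the 5 passed, with the same signs and the lowest adjusted p at 0.061. The count was 0 without wild-type heat replicate 1 or zuo1Δ heat replicate 2, and 4 without either of the other 2 libraries.

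**Figure D4:**
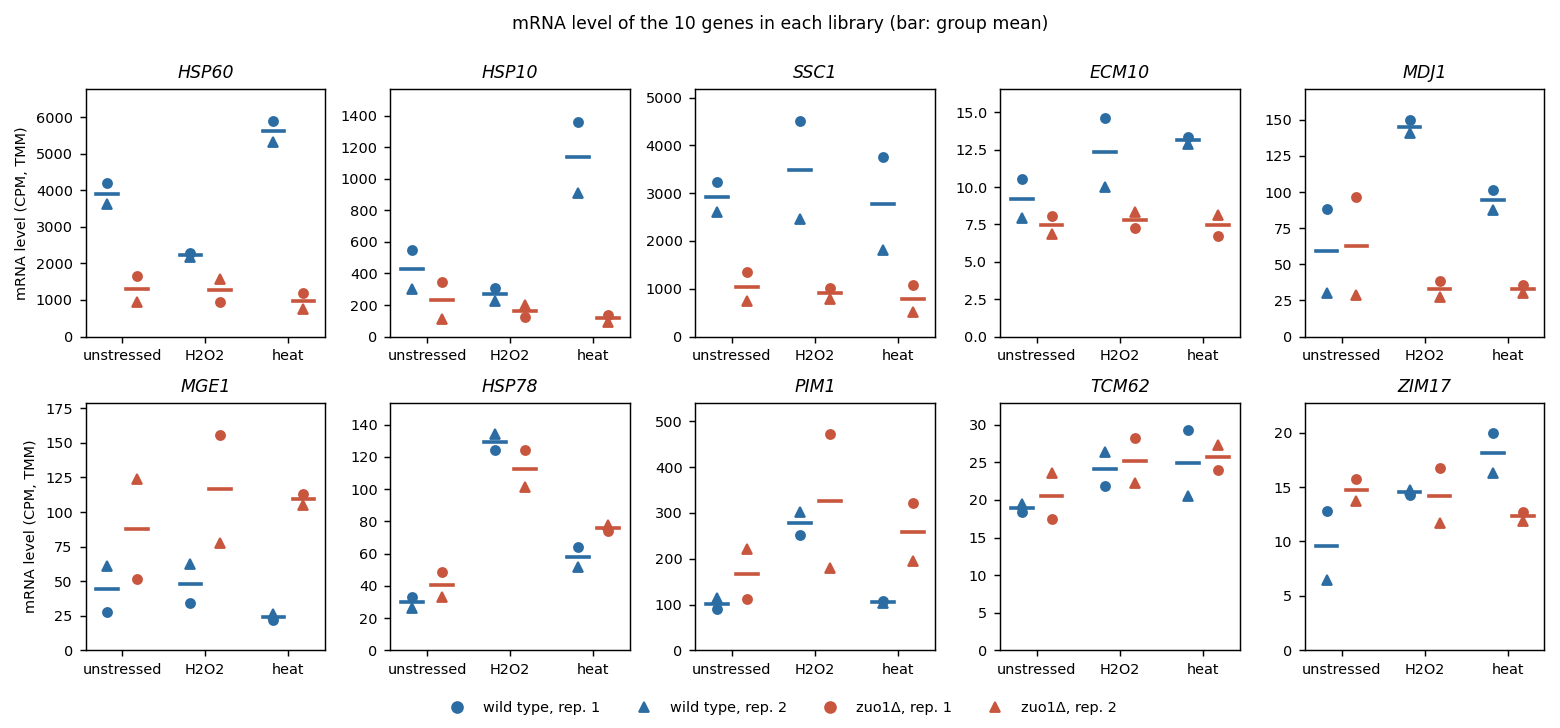
mRNA level (CPM, TMM-scaled, axis from 0) of each gene in the 12 mRNA libraries, by condition, with colours and symbols for genotype and replicate as in the plot of footprint levels. HSP60 (5893 and 5326 CPM) and HSP10 (1363 and 911.7 CPM) are highest in wild-type heat, and MGE1 is higher in zuo1Δ (113.2 and 105.3 CPM) than in wild type (22.1 and 26.1 CPM) after heat.

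The other mRNA comparisons called no member in edgeR. Without stress 0.276% of all genes passed between genotypes, with 2 members at an unadjusted p under 0.05. DESeq2 called 2, HSP60 (-1.61, adjusted p = 0.00247) and SSC1 (-1.51, adjusted p = 0.0327), in ranges up to 0.802 and 0.951 over the settings. Under library size alone HSP60 stood at -0.12 and SSC1 at -0.03, still below 0, and 6 members passed as higher. So the size of the values and the calls depend on the scaling. The direction did for HSP10 and ECM10, at -0.89 and -0.31 with TMM factors. By library size HSP10 stood at 354 and 173.6 CPM in zuo1Δ against 214.6 and 150.5 in wild type. ECM10 stood at 8.275 and 10.45 CPM against 4.11 and 3.952. In the H2O2 libraries 0.276% of all genes passed, with 3 members at an unadjusted p under 0.05. DESeq2 called 2, SSC1 (-1.98, adjusted p = 0.00541) and MDJ1 (-2.17, adjusted p = 0.00581), in ranges up to 0.61 and 0.6. MDJ1 mRNA there stood at 38.4 and 27.5 CPM in zuo1Δ against 149.6 and 140.9 CPM in wild type, at -2.14 ± 0.56 (edgeR, adjusted p = 0.0872). The 27.5 is from the doubted library labelled H2O2 replicate 2. Without the 3 doubted libraries MDJ1 stood at -1.92 and SSC1 at -1.79 (adjusted p = 0.312 for both), and 0 members passed in edgeR. A fit of only these groups called 3 members. Within zuo1Δ 0.0394% of all genes passed for H2O2 and 0% for heat, each with 1 member at an unadjusted p under 0.05 and 0 in DESeq2. For the interactions the shares were 0% and 0%, with 1 member at an unadjusted p under 0.05 for H2O2, 2 for heat, and 0 in DESeq2. Without zuo1Δ unstressed replicate 2 the heat interaction called HSP10 (-2.98, adjusted p = 0.0242) and MDJ1 (-2.23, adjusted p = 0.0453), both in ranges up to 0.907. These zuo1Δ groups and interactions hold doubted mRNA libraries, and without them 0 members passed in each (edgeR).

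Set against mRNA, footprints of 4 members differed between genotypes after heat, 1 higher and 3 lower, and calls over all genes also went in both directions. The footprint difference minus the mRNA difference was 2.67 ± 0.60 for HSP10 (edgeR, adjusted p = 0.00814), higher in zuo1Δ. It was -2.43 ± 0.58 for MGE1 (adjusted p = 0.00836), -2.03 ± 0.60 for HSP78 (adjusted p = 0.0212) and -1.90 ± 0.56 for PIM1 (adjusted p = 0.0201), lower in zuo1Δ. Among all genes 16.4% were higher, 12.1% were lower and 28.6% passed in either direction, so 4 of 10 members is not far from the background. The zuo1Δ mRNA group holds the doubted library labelled heat replicate 1. Without the 3 doubted libraries HSP10 stood at 2.97 (adjusted p = 0.0234), MGE1 at -2.39 (0.0246), HSP78 at -2.07 (0.0388) and PIM1 at -1.51 (0.0334), and these 4 passed. Library size alone moved the median of all genes by -1.35 and put HSP10 at 1.26 (adjusted p = 0.04), MGE1 at -3.75, HSP78 at -3.43 and PIM1 at -3.23. TCM62, at -1.11 with TMM factors, passed as lower under it too (adjusted p = 0.00615). HSP10 and MGE1 passed under each of the 16 other settings, with adjusted p up to 0.0405 and 0.0421. HSP78 missed the threshold in 5 of these, at adjusted p up to 0.0828, and PIM1 in 5, at adjusted p up to 0.0705. The footprint to mRNA ratio itself (log2, mean ± SE, n = 2) moved for HSP10 from -1.17 ± 0.34 in wild type to 1.50 ± 0.33 in zuo1Δ, and for MGE1 from 2.94 ± 0.15 to 0.51 ± 0.05. For HSP10 the mRNA differed more between genotypes (-3.28) than the footprints did (-0.61), and for MGE1 the mRNA was higher (2.18) with footprints at -0.25 ± 0.13. The count was 2 without mRNA wild-type heat replicate 1, footprint wild-type heat replicate 1 or footprint zuo1Δ heat replicate 2.

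HSP60, SSC1 and MDJ1 had efficiency values of 0.93 ± 0.52, 0.93 ± 0.60 and 0.26 ± 0.63 after heat, none of which passed, and library size alone turned them to -0.40, -0.54 and -1.11. The 363 genes with a mean mRNA level of at least 500 CPM, among them HSP60 and SSC1, had a median of 1.22 in this comparison. That of all genes was -0.05, and the part of this difference in the members' values was not tested. Without stress and in the H2O2 libraries no member passed between genotypes in edgeR, with 0.0394% and 0.0197% of all genes passing. At an unadjusted p under 0.05 there were 0 and 4 members, and DESeq2 called 0 in both. Without the 3 doubted libraries 0 members passed in the H2O2 libraries (edgeR).

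**Figure D5:**
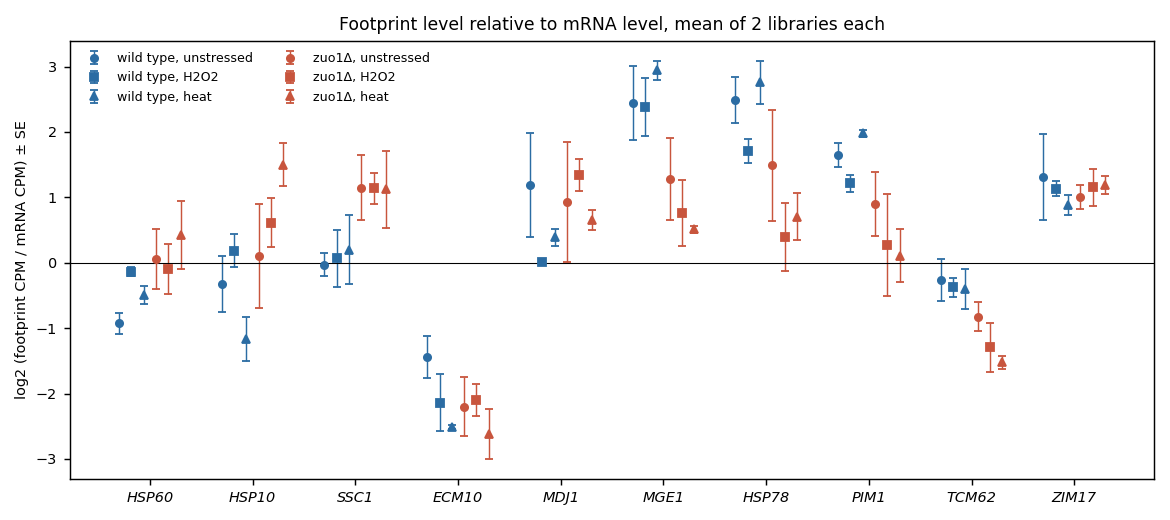
Log2 of the footprint level over the mRNA level (mean of 2 libraries of each assay, bars ± SE) for each gene, with colour for genotype and symbol for condition. After heat HSP10 lies at -1.17 in wild type and 1.50 in zuo1Δ, and MGE1 at 2.94 and 0.51.

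Among the 12 footprint libraries the members did not all vary together. Pearson's r with the mean standardised profile of the 10 members was 0.963 for SSC1, 0.905 for MDJ1 and 0.902 for HSP78, and 0.266 for ZIM17 and 0.562 for HSP10. Each member is part of that mean, which raises its r, unlike that of genes outside the 10. Between single members r was 0.943 for SSC1 and MDJ1 and 0.864 for HSP60 and HSP10, but 0.236 for HSP10 and MDJ1. So the chaperonin pair varied together, and SSC1 varied with its J-protein, but not with that gene alone. For SSC1 r was also 0.829 with HSP78, 0.811 with TCM62 and 0.808 with MGE1, and it was lowest with HSP10 (0.424) and ZIM17 (0.116). The 5 other genes with a profile most like the members' mean, at a mean of at least 10 CPM, were ABP1 (0.975), UBP2 (0.969), EDE1 (0.964), VPS13 (0.962) and SSA1 (0.943). ABP1 and EDE1 encode proteins of actin patches and endocytosis, UBP2 a ubiquitin protease, VPS13 a lipid transfer protein and SSA1 a cytosolic Hsp70. These libraries share depth, genotype and condition differences, so the values of r are descriptions.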

How the data were processed

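Poly(A) mRNA and ribosome footprints were sequenced as paired reads on an Illumina instrument, per the labels' protocols, and lysis buffer held cycloheximide. The authors deposited raw read counts per gene for all 24 libraries. The submitters' processing notes name cutadapt, Bowtie2, HISAT2, SAMtools and build R64. Their roles and versions, the counting tool, its strand setting and its annotation are not stated in the labels. Gene names and coordinates came from a RefSeq gene table of R64, in which 5198 of 5211 IDs matched. Its lengths are coding lengths, since 96.3% are multiples of 3. The 3 emptied lines of the table were left out.

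Genes at 0 in all libraries of wild type (87) or zuo1Δ (54) were left out, and 5070 were used. The edgeR 4.0.16 quasi-likelihood test (R 4.3.3) was fitted within each assay (12 libraries), scaled by TMM, after filterByExpr at a minimum of 10 counts and a total of 15. Benjamini-Hochberg adjustment ran over all genes, at a threshold of 0.05. A single model of all 24 libraries gave efficiency, the footprint difference minus that in mRNA. There were 23 comparisons. Each SE was obtained by dividing the size of the log2 fold change by the root of its F statistic. The biological coefficient of variation was 0.169 in footprints and 0.318 in mRNA. Alternatives were RLE factors, library size alone, no filter, DESeq2 1.42.0, only the groups compared, a replicate block, keeping genes at 0 in 1 genotype, and leaving out the 3 doubted libraries or each library in turn. Where leaving one out left a lone library, it was assumed to vary like the other groups.

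The members, lists and settings were chosen with earlier results of these data known. All 10 members are named. Of the other lists, up to 3 genes per list and comparison are named, those that passed in wild-type footprints with the largest change. The genes named as passing only under another setting were chosen after their values were seen, as was the minimum of 500 CPM for abundant mRNAs. The labels name no molecular identifiers, and counted reads may be copies of 1 molecule.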

Additional observations from a re-analysis of the deposited data

How the results depend on the processing

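Counts of the 10 members that passed are compared with the edgeR fit with TMM factors, and no value that passed changed sign under any setting. With library size alone the count went from 5 to 3 for footprints between genotypes in H2O2, 1 to 2 for wild-type H2O2 footprints, 0 to 6 for unstressed mRNA between genotypes, 1 to 7 for wild-type H2O2 mRNA and 0 to 4 for unstressed efficiency. With RLE factors, and with genes at 0 in 1 genotype kept, wild-type heat footprints went from 2 to 1, and keeping those genes moved mRNA between genotypes in H2O2 from 0 to 1. DESeq2 called 1 for footprints between genotypes unstressed and 1 for the heat interaction (both 0 in edgeR), 2 and 2 for mRNA between genotypes unstressed and in H2O2 (both 0), 2 for wild-type H2O2 mRNA (1) and 1 for wild-type heat mRNA (0). Fitting only the groups compared gave 3 for wild-type H2O2 footprints (1), 1 for zuo1Δ heat footprints (2) and 3 for mRNA between genotypes in H2O2 (0). Without the 3 doubted libraries the counts were 1 (0), 0 (5) and 6 (3) for footprints between genotypes unstressed, in H2O2 and in heat, and 0 (5) for mRNA in heat. No low-count filter changed none of these counts by over 1.5 times. The cause of these changes was not tested.

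The replicate block gave 1 and 5 for footprints between genotypes unstressed (0) and in heat (3), 2 for wild-type H2O2 footprints (1), 1 for the footprint heat interaction (0), and 1 and 2 for mRNA between genotypes unstressed (0) and in H2O2 (0). Same-numbered replicates deviated together at r over 0.1 in 6 of 15 pairs of groups for footprints (-0.0736 to 0.351) and 9 of 15 for mRNA (-0.328 to 0.783). Among the wild-type groups and unstressed zuo1Δ every pair was over 0.1, at 0.111 to 0.351 for footprints and 0.209 to 0.783 for mRNA. Each pair at or below 0.1 held zuo1Δ H2O2 or zuo1Δ heat. The main fit did not pair same-numbered libraries, and a shared source of their deviations was not tested.

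Leaving out each library in turn gave 0 to 5, 2 to 3, 0 to 1, 0 to 0 and 0 to 1 for footprints between genotypes in H2O2 and heat, wild-type H2O2, wild-type heat and zuo1Δ heat. It gave 0 to 1 for each footprint interaction, 0 to 4 for mRNA between genotypes in heat, 0 to 1 and 0 to 1 for wild-type mRNA in H2O2 and heat, 0 to 2 for the mRNA heat interaction and 2 to 4 for efficiency in heat. Of 3083 values of single members under another setting, 78 lost their call and 59 gained one. Most of the 3083 had no call in the main fit, so they had none to lose. Where a library was left out in turn, calls of the main fit were lost more often than kept. The count over all genes moved by over 1.5 times in 15 of 23 comparisons with DESeq2, 12 with library size alone, 11 without the doubted libraries, 10 with only the groups compared and 8 with the block. The order of footprint levels without division by length differed for MDJ1, HSP78, MGE1 and PIM1. Depth limits ECM10, with 3 to 44 footprint counts per library.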
